A study of Mus musculus with 4 samples.

Results

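The genes of glucose uptake, glycolysis and pyruvate entry were examined in mouse hearts under pressure overload. The 37 genes were a fixed list, chosen with earlier results of these data known. They cover the glucose transporters of the heart, the glycolytic enzymes, lactate dehydrogenase, the mitochondrial pyruvate carrier, and the pyruvate dehydrogenase complex with its kinases and a phosphatase. Each gene was found on the array through the RefSeq or Ensembl transcript of its probe. All 37 had at least 1 probe, out of 22811 genes that could be named this way, and a gene with several probes was represented by the brightest.

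Total RNA came from hearts of male C57BL/6J mice, a common inbred laboratory strain. They had undergone transverse aortic constriction (TAC), which narrows the aorta and loads the left ventricle, or a sham operation. The methods say that hearts were cut before freezing and do not name the part used. The 4 groups were sham at 2 weeks, TAC at 2 weeks, sham at 8 weeks and TAC at 8 weeks. The study took 2 weeks as the phase of hypertrophy and 8 weeks as that of heart failure. All mice were wild type. By the labels they were 10 weeks old in the 2-week groups and 16 weeks old in the 8-week groups, whereas the methods place surgery at an age of 12 weeks. Each group was a single Agilent array hybridized with RNA pooled from 4 to 6 mice, 500 ng from each. There is therefore no spread between animals, no p-value and no SD over mice in what follows, and each change is the ratio of 2 pools. In RNA of heart tissue, fewer cells of a type and less RNA per cell cannot be told apart.

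Glycolysis splits glucose into pyruvate in the cytosol. Pyruvate is then either reduced to lactate or carried into mitochondria, where the pyruvate dehydrogenase complex turns it into acetyl-CoA. The adult heart burns mainly fatty acids, and glucose takes a larger share of its fuel before birth and under pressure overload. Many of the enzymes exist as isozymes from separate genes, of which some are typical of striated muscle and others of most tissues.

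Signals are given as the processed signal divided by the 75th percentile of the array, and changes as log2 ratios of these values. A gene was compared where its probe was well above background on both arrays, by the scanner software's own flag, and was called higher or lower when the ratio passed 1.5-fold. Repeat spots of a probe on an array differed by a log2 ratio with an SD of 0.0945 for probes above the 75th percentile and 0.226 for those below it. This technical error leaves out the hybridization and the mice. The 75th percentile lay between 206 and 248 on the 4 arrays, 54.7% to 58.5% of the probes were well above background, no spot was saturated, and all arrays lay on the same slide and scan. The transcripts that rise in hypertrophy followed the labels. Nppa, Nppb, Myh7, Acta1 and Ankrd1 were all higher after TAC, by a median of 1.84 on the log2 scale at 2 weeks and of 2.65 at 8 weeks. Myh6 and Atp2a2, which fall in hypertrophy, were below sham at both times without passing 1.5-fold. Myh6 gave -0.19 at both times, and Atp2a2 gave -0.45 and -0.37. Cardiomyocyte markers such as Myh6 and Tnnt2 were bright on every array, and none of the 4 white fat markers was measured on any pair.

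Few transcripts of glucose use passed 1.5-fold after TAC. Of the 36 members compared at 2 weeks, none was called higher and 1, Pfkfb1, was lower. Over all 14958 genes compared, 4.16% were higher and 2.62% lower. At 8 weeks 1 member, Pfkp, was higher and 1, again Pfkfb1, was lower, against 5.32% and 4.08% of 15124 genes. The shares of members called, 0% and 2.78% at 2 weeks and 2.78% in each direction at 8 weeks, were no larger than these backgrounds except for the single lower member at 2 weeks. With scaling to the array median the 8-week shares over all genes were 7.16% and 2.81%, and without normalization 9.35% and 2.06%. At 2-fold no member was higher at either time, where 0.896% and 1.78% of all genes were, and none was lower at 2 weeks, where 0.575% were. The members' median was -0.04 on the log2 scale at 2 weeks and -0.01 at 8 weeks, beside -0.01 at both times over all genes. The middle 50% of the members lay between -0.26 and 0.10 at 2 weeks, where that of all genes lay between -0.14 and 0.16, and between -0.24 and 0.12 at 8 weeks, where that of all genes lay between -0.18 and 0.17. At 2 weeks 23 of the 36 members were below sham and 18 were within 0.2 of it, which is 50% of them against 61.3% of all genes. At 8 weeks 20 were below sham and 21 were within 0.2 of it, 58.3% against 55.6%.

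**Figure D1:**
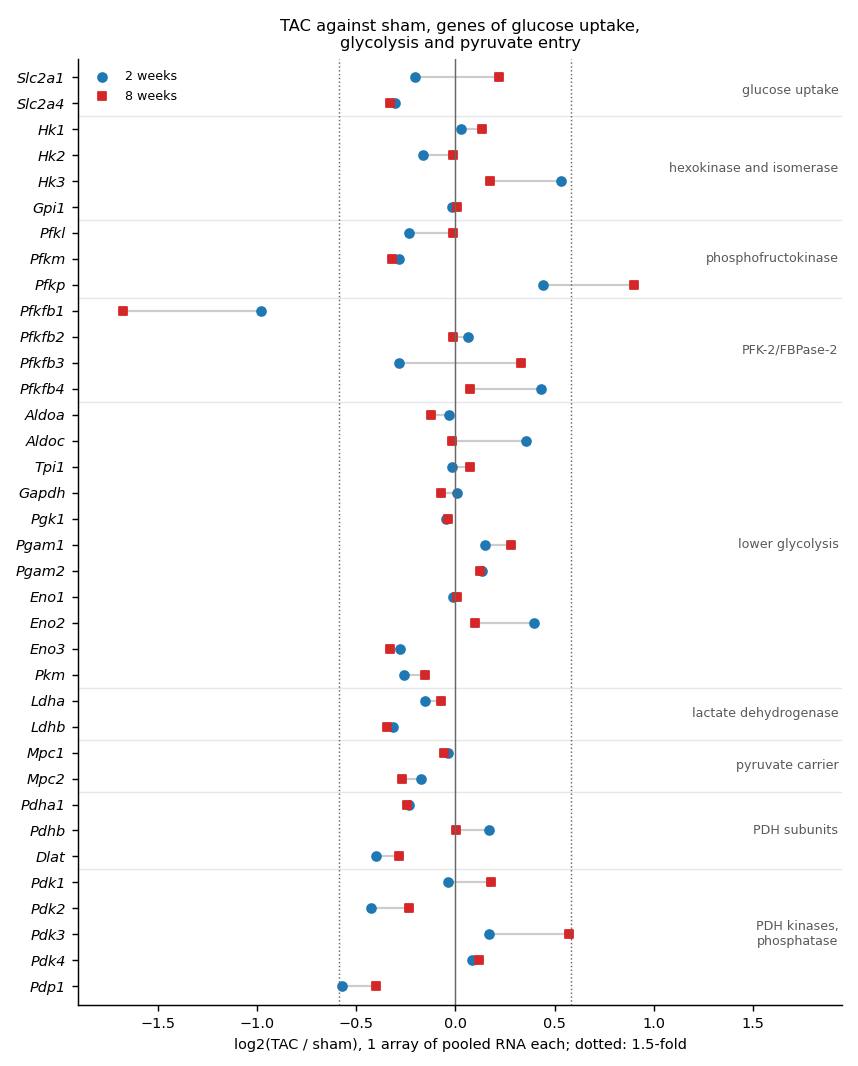
Log2 ratio of TAC over sham (horizontal axis) for the 36 members compared, at 2 weeks (circles) and 8 weeks (squares), ordered by role from uptake at the top to pyruvate dehydrogenase at the bottom. Each point is the ratio of 2 arrays of pooled RNA and has no error bar; dotted lines mark 1.5-fold. Pfkfb1 lies outside the lines on the left at both times, Pfkp on the right at 8 weeks, and all other genes lie inside.

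Pfkfb1 was the member with the lowest ratio at both times. It encodes a bifunctional enzyme, known from liver and skeletal muscle, that makes and breaks down fructose 2,6-bisphosphate, the strongest activator of phosphofructokinase. Its signal was 6.48 on the sham array and 3.29 on the TAC array at 2 weeks, and 6.29 and 1.97 at 8 weeks. Both sham arrays were alike, and both TAC arrays lay below them. The log2 change was -0.98 at 2 weeks, a 1.97-fold fall, and -1.67 at 8 weeks, a 3.19-fold fall. At 8 weeks it was thus over 2-fold lower, as were 0.886% of all genes. TAC at 8 weeks was also below TAC at 2 weeks, with a log2 change of -0.74, while the change between the sham arrays was -0.04. Pfkfb1 was the only member past 1.5-fold in the same direction at both times. Over all 14763 genes measured on 4 arrays, 1.15% were lower and 2.05% higher at both times. The gene has a single probe with a single spot, so no second measurement on the array bears on it.

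The other forms of the bifunctional enzyme did not follow Pfkfb1. Pfkfb2, the form known from the heart and regulated there by insulin and adrenaline, had signals of 1.08, 1.13, 1.26 and 1.25 on the sham and TAC arrays at 2 weeks and the sham and TAC arrays at 8 weeks. Its log2 changes were 0.06 and -0.01, so that Pfkfb1 and Pfkfb2 differed in log2 change by 1.04 at 2 weeks and 1.66 at 8 weeks. Pfkfb3, the inducible form of proliferating and hypoxic cells, had a log2 change of -0.28 at 2 weeks and 0.33 at 8 weeks. Its second, dimmer probe gave -0.84 and 0.42, the same pattern with a wider swing, and would have been called lower at 2 weeks. Sham at 8 weeks was also 0.38 below sham at 2 weeks on the brighter probe, so the change of sign between the times went with a change of the sham level. Pfkfb4 had log2 changes of 0.43 and 0.08, and its second probe was well above background on 1 of the 4 arrays only.

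Phosphofructokinase itself commits sugar to glycolysis, and the ratios of its 3 isozymes lay on both sides of 1. Pfkp, the platelet type that is widespread outside muscle, had a signal of 3.23 in sham and 4.38 in TAC at 2 weeks, and of 2.99 in sham and 5.57 in TAC at 8 weeks. Each TAC array was above both sham arrays. Its log2 change was 0.44 at 2 weeks, which is under 1.5-fold, and 0.90 or 1.86-fold at 8 weeks. A second, dimmer probe of Pfkp gave 0.50 and 0.52, the same direction without passing 1.5-fold at 8 weeks, so the call at 8 weeks rests on the brighter probe. Pfkm, the muscle type, was below sham at both times. Its signal was 166 in sham and 136 in TAC at 2 weeks, and 170 and 136 at 8 weeks, and the means over the 10 spots of this probe gave log2 changes of -0.28 ± 0.03 and -0.32 ± 0.02 (SE over spots on 1 array per group). Neither passed 1.5-fold. The change of Pfkp exceeded that of Pfkm by 0.72 at 2 weeks and 1.22 at 8 weeks, and by -0.15 between the sham arrays. Pfkl, the liver type, had log2 changes of -0.23 and -0.01.

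**Figure D2:**
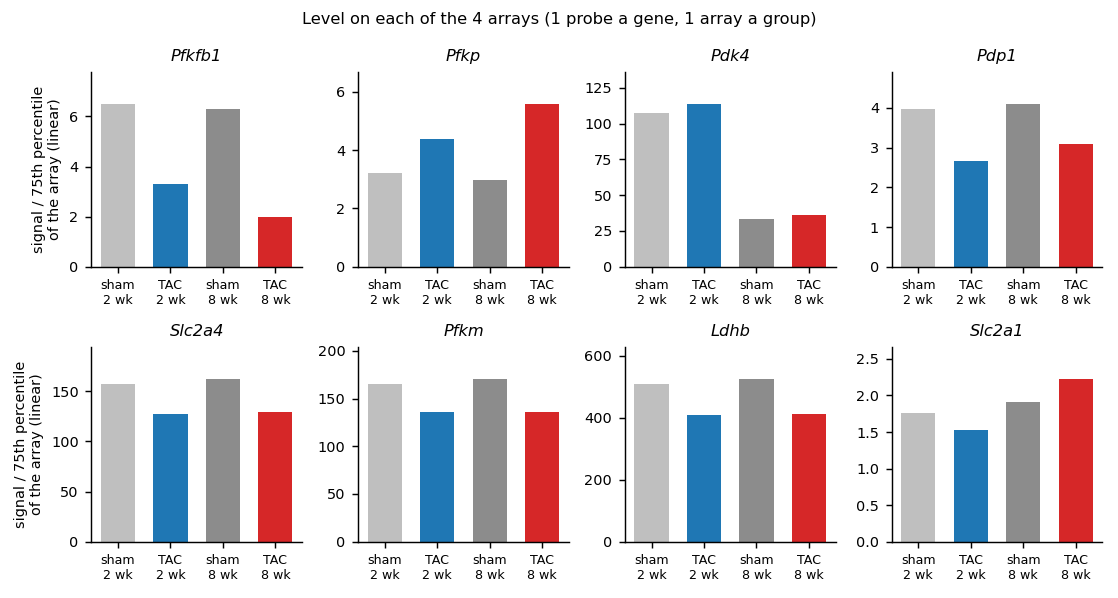
Signal divided by the 75th percentile of the array (vertical axis, linear, starting at 0) of 8 members on the 4 arrays; each bar is a single array of pooled RNA, and heights are comparable within a panel only. Pfkfb1 and Pdp1 are lower and Pfkp is higher on both TAC arrays, Slc2a4, Pfkm and Ldhb are lower on both TAC arrays by a like amount, and Pdk4 separates the times instead of the operations.

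Bases before the transcript start are shown for the 3 members that passed 1.5-fold in any comparison, Pfkfb1, Pfkp and Pdk4, and for 2 others that did not and that hold a match to a hypoxia motif, Pgk1 and Slc2a1. The sequences are those of RefSeq on GRCm38.p6, the 250 bases before the start of the probe's transcript, and come from chrX:150589666-150589915 (plus strand) for Pfkfb1, chr13:6648772-6649021 (minus strand) for Pfkp, chr6:5496279-5496528 (minus strand) for Pdk4, chrX:106186850-106187099 (plus strand) for Pgk1 and chr4:119108495-119108744 (plus strand) for Slc2a1. Capitals mark ACGTG or its reverse complement CACGT, 1 form of the core of the element bound by the hypoxia-inducible factors. The other form, GCGTG, was not searched. It stands unmarked in the bases of Pfkp and Pdk4, for example.
Pfkfb1: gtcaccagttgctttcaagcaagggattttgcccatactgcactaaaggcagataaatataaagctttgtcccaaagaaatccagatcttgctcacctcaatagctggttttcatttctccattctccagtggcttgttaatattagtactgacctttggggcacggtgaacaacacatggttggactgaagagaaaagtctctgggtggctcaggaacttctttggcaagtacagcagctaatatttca
Pfkp: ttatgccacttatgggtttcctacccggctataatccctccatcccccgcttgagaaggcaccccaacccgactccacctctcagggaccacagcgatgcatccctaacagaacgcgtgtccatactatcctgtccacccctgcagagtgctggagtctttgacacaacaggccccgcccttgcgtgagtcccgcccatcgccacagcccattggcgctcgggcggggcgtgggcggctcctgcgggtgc
Pdk4: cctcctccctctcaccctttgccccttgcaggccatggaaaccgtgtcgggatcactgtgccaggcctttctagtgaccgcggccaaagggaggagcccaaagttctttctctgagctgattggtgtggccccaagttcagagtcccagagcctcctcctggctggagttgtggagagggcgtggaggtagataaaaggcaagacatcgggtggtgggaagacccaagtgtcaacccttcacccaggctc
Pgk1: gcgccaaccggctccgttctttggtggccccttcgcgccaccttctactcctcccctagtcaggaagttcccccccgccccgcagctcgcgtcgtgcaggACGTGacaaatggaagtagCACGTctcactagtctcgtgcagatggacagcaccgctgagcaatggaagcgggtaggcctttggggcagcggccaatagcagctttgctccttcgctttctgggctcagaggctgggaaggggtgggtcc
Slc2a1: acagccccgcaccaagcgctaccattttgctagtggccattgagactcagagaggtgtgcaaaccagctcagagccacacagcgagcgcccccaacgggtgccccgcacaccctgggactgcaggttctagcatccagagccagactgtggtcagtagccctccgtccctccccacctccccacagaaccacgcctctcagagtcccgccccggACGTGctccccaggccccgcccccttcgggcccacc
The window of 300 bases (250 before the start and 50 after it) was searched on both strands. ACGTG was found in 12 of the 34 members whose probe transcript had a promoter in the table. Counting every promoter of a gene, it was found in 21 of 56 member promoters, 37.5%, and in 19.6% of all 32851 promoters. None of these 12 genes passed 1.5-fold at either time. Of all genes, 4.16% were higher and 2.62% lower at 2 weeks, and 5.32% and 4.08% at 8 weeks. Among so few genes, no call cannot be told from such shares. The median log2 change of these 12 was -0.01 at 2 weeks and 0.07 at 8 weeks. The 21 members compared without a match had medians of -0.04 and -0.02. Of these 21, 1 was lower at 2 weeks, and 1 was higher and 1 lower at 8 weeks. The 3 members that passed in any comparison had no match to ACGTG in the window, and neither did most of all promoters. The E-box CACGTG, which contains ACGTG, was found at the probe transcript of 2 members, Pdk2 and Pfkfb3. Counting every promoter, it was found in 5 of the 56 of members, 8.93%, and in 7.15% of all promoters. The element TCAAGGTCA of the estrogen-related receptors was found in no member promoter and in 0.423% of all promoters. A match is a description of these letters and not of binding.

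Glucose enters cardiomyocytes through Slc2a1, the basal transporter GLUT1, and Slc2a4, the insulin-responsive transporter GLUT4. Slc2a4 had a signal of 157 in sham and 127 in TAC at 2 weeks, and of 162 and 129 at 8 weeks. The 2 TAC arrays lay together below the 2 sham arrays. Its log2 changes were -0.30 ± 0.03 and -0.33 ± 0.03 (SE over 10 spots on 1 array per group), a 1.23-fold and a 1.25-fold difference. Slc2a1 had signals of 1.76, 1.53, 1.91 and 2.22 in the same order of arrays, and log2 changes of -0.20 and 0.22. On this gene the TAC arrays differed more from each other, by 1.46-fold, than either did from its sham array.

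Hexokinase traps glucose in the cell as glucose 6-phosphate. Hk1, the form of most tissues, had log2 changes of 0.03 and 0.13, and Hk2, the insulin-responsive form of muscle, of -0.16 and -0.01. Hk3, known from blood cells, was dim, with signals of 0.13, 0.18, 0.15 and 0.17. Its log2 change of 0.53 at 2 weeks was 0.12 after normexp background correction. The offset of 50 added there exceeds its unscaled signals at 2 weeks, 25.9 in sham and 37.4 in TAC. Such an offset by itself moves the ratio of dim signals toward 1. Gpi1, which isomerizes glucose 6-phosphate, was within 0.02 of its sham level at both times on its brightest probe. Its 3 probes ranged from -0.15 to 0.02 at 2 weeks and from 0.01 to 0.07 at 8 weeks, and quantile normalization gave 0.11 at 2 weeks.

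The ratios of the enzymes from aldolase to pyruvate kinase lay on both sides of 1, with medians near it. Of the 12 genes, 11 were compared and none passed 1.5-fold at either time. Of all genes, 4.16% were higher and 2.62% lower at 2 weeks, and 5.32% and 4.08% at 8 weeks. In a list this short, no call cannot be told from such shares. The log2 changes had medians of -0.01 and -0.02. They ran from -0.28 to 0.39 at 2 weeks and from -0.33 to 0.28 at 8 weeks. Aldoa, the muscle aldolase, had log2 changes of -0.03 and -0.12, Tpi1 of -0.02 and 0.07, and Pgk1 of -0.05 and -0.04. Gapdh, often used as a reference gene, was measured by 7 probes, whose changes ranged from -0.23 to 0.01 at 2 weeks and from -0.08 to 0.14 at 8 weeks. The sign of so small a change depended on the probe and the scaling. The mutases Pgam1 and Pgam2, of most tissues and of muscle, gave 0.15 and 0.14 at 2 weeks and 0.28 and 0.13 at 8 weeks. Both were above sham under each scaling tried.

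Among the enolases the muscle form had the lowest ratios. Eno3, the muscle enolase, had a signal of 564 in sham and 464 in TAC at 2 weeks, and of 541 and 430 at 8 weeks, with log2 changes of -0.28 and -0.33. Eno1, the form of most tissues, gave -0.01 and 0.01. Eno2, the neuronal form, was dim and gave 0.39 and 0.10, and the dim Aldoc gave 0.35 and -0.02. Pkm, which makes pyruvate in muscle and most tissues, gave -0.26 and -0.16. Pklr, the pyruvate kinase of liver and red blood cells, was measured above background by the TAC array at 2 weeks only, and was at least 1.12-fold higher there than in sham. Neither array at 8 weeks measured it.

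Lactate dehydrogenase interconverts pyruvate and lactate. Ldhb, the form that predominates in the heart, had a signal of 510 in sham and 410 in TAC at 2 weeks, and of 523 and 413 at 8 weeks. Its log2 changes were -0.31 and -0.34. Ldha, the form of glycolytic muscle, gave -0.15 and -0.07 on its brightest probe, and its 3 probes ranged from -0.15 to 0.03 at 2 weeks and from -0.08 to -0.07 at 8 weeks.

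Slc2a4, Pfkm, Eno3 and Ldhb lay between -0.34 and -0.28 at both times, and remained below sham under all the scalings tried, nearest to 0 for Pfkm, at -0.15, at 8 weeks without normalization between arrays. None was called. These 4 were picked out after their values were seen. They are forms typical of striated muscle or heart, but other muscle forms had changes nearer to 0 or above it, namely Pgam2 (0.14 and 0.13), Aldoa (-0.03 and -0.12) and Hk2 (-0.16 and -0.01). Markers of some other cells moved at the same time. None of the 5 endothelial markers was called at either time, with medians of 0.19 and 0.03. No call fell among the 3 skeletal muscle, 2 erythroid and 1 brown fat markers measured. The skeletal muscle markers were the dim Tnnt3 (0.54 and 0.35), Tnni2 (-0.20 and -0.54) and Ckm (-0.09 and -0.21). Of the 7 fibroblast markers, 4 (Col1a1, Col1a2, Col3a1 and Postn) were called higher at each time. The others were not called: Pdgfra gave 0.31 and 0.40, Dcn 0.18 and 0.28, and Tcf21 0.07 and -0.55. The summed signal of all 7, mostly from Dcn (143 in sham at 2 weeks), went from 199 in sham to 271 in TAC at 2 weeks. At 8 weeks it went from 223 to 320. Of the 8 cardiomyocyte markers, none was called at 2 weeks and 1, Ryr2, was lower at 8 weeks, with summed signals of 8344 and 7819 at 2 weeks and 7939 and 7048 at 8 weeks, and their median log2 change was -0.17 at both times. Of the 3 neutrophil markers measured, 2 were called higher at each time, S100a8 by 1.11 and 2.17 and S100a9 by 1.21 and 2.00 on the log2 scale, while Csf3r gave -0.05 and 0.06. Their summed signal, nearly all from the bright Csf3r probe, was 333 in sham and 323 in TAC at 2 weeks and 274 and 288 at 8 weeks. All 5 macrophage markers measured were above sham at both times, 1 of them (Cd163, 0.66) called at 2 weeks and none at 8 weeks, and their summed signal went from 29.8 to 37.1 and from 30.2 to 38.0. Of the atrial markers, Myl4 gave -0.01 and -0.52, and Sln and Myl7, not well above background in TAC at 8 weeks, were at least 2.55-fold and 3.64-fold lower there than in sham. The part of these shifts in the members' values was not tested.

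**Figure D3:**
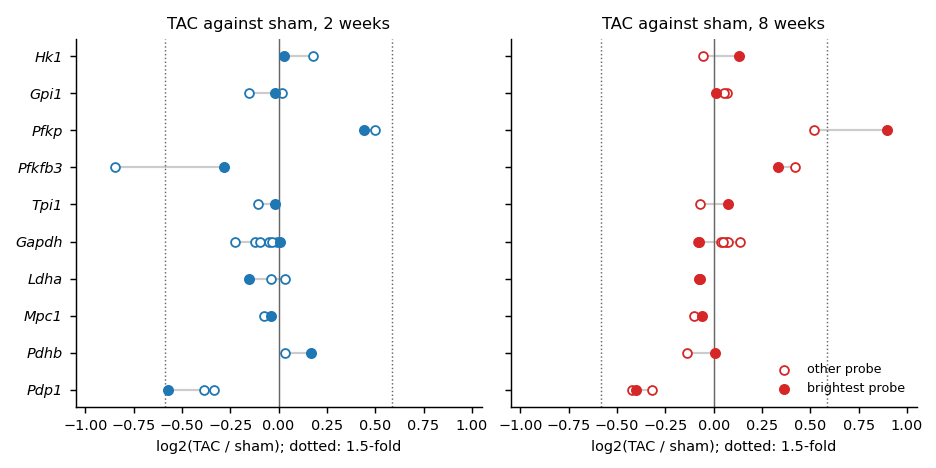
Log2 ratio of TAC over sham (horizontal axis) for every probe well above background on all 4 arrays, for the 10 members with more than 1 such probe, at 2 weeks (left) and 8 weeks (right). Filled points are the brightest probe, open points the others. The widest ranges are 0.56 for Pfkfb3 at 2 weeks, whose second probe is near the detection limit, and 0.38 for Pfkp at 8 weeks. At 2 and 8 weeks, 7 and 8 of the 10 genes keep within 0.2.

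The mitochondrial pyruvate carrier is a pair of proteins, both needed for transport. Mpc1 had log2 changes of -0.04 and -0.06. Mpc2 had -0.17 ± 0.03 and -0.27 ± 0.03 (SE over the 9 spots used on each 2-week array and the 10 on each 8-week array, 1 array per group), and its signal went from 153 in sham to 136 in TAC at 2 weeks and from 159 to 132 at 8 weeks.

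Pyruvate dehydrogenase is built from the subunits of its first enzyme, encoded by Pdha1 and Pdhb, and the core acetyltransferase, encoded by Dlat. The signal of Dlat was 23.6 in sham and 17.8 in TAC at 2 weeks, then 23.2 in sham and 19.1 in TAC at 8 weeks. Its log2 changes were -0.40 and -0.28. Pdha1 gave -0.23 and -0.24. Pdhb did not share this, with 0.17 and 0.01.

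The complex is switched off by the kinases Pdk1 to Pdk4 and on by the phosphatases. Pdk4, the kinase known from fasted muscle and heart, had a signal of 107.2 in sham and 113.5 in TAC at 2 weeks, and of 33.6 in sham and 36.5 in TAC at 8 weeks. The arrays separated by time and not by operation. TAC over sham was 0.08 at 2 weeks and 0.12 at 8 weeks on the log2 scale, whereas sham at 8 weeks was 3.19-fold below sham at 2 weeks and TAC at 8 weeks was 3.11-fold below TAC at 2 weeks. Pdk2, abundant in heart, went from 47.9 in sham to 35.7 in TAC at 2 weeks and from 45.9 to 39.0 at 8 weeks, with log2 changes of -0.42 and -0.23. Pdk1, a target of the hypoxia-inducible factors, gave -0.04 and 0.18. Pdk3 was dim, with signals of 0.21, 0.23, 0.16 and 0.24, and its log2 change at 8 weeks was 0.57, just under 1.5-fold. It passed with quantile normalization, with scaling to the median and without normalization, and was 0.24 after normexp background correction.

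Pdp1, the calcium-activated phosphatase of the complex in muscle, had a signal of 3.96 in sham and 2.67 in TAC at 2 weeks, and of 4.09 and 3.1 at 8 weeks. The 2-week change was 1.49-fold or -0.57, just short of the threshold, and the 8-week change was -0.40. All 3 probes of Pdp1 were below sham at both times, from -0.57 to -0.34 at 2 weeks and from -0.42 to -0.32 at 8 weeks.

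The time after surgery was compared within each operation, where age and time cannot be told apart and each comparison again rests on 2 pools. Between the sham arrays, 31 of the 36 members lay within 0.2 of each other on the log2 scale, compared with 73.9% of all genes. Pdk4 was the only member called, as lower at 8 weeks, where 1.65% of all genes were higher and 1.26% lower. Between the TAC arrays none was higher and 2, Pdk4 and Pfkfb1, were lower, against 2.84% higher and 2.94% lower over all genes. None of the measured cardiomyocyte, fibroblast, endothelial, macrophage, neutrophil, erythroid, brown fat or skeletal muscle markers passed 1.5-fold between the sham arrays. Of the 3 atrial markers, the dim Sln was higher at 8 weeks (0.63) and Myl4 was not called (0.32). Myl7, also dim and not well above background in sham at 2 weeks, was at least 2.84-fold higher at 8 weeks.

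**Figure D4:**
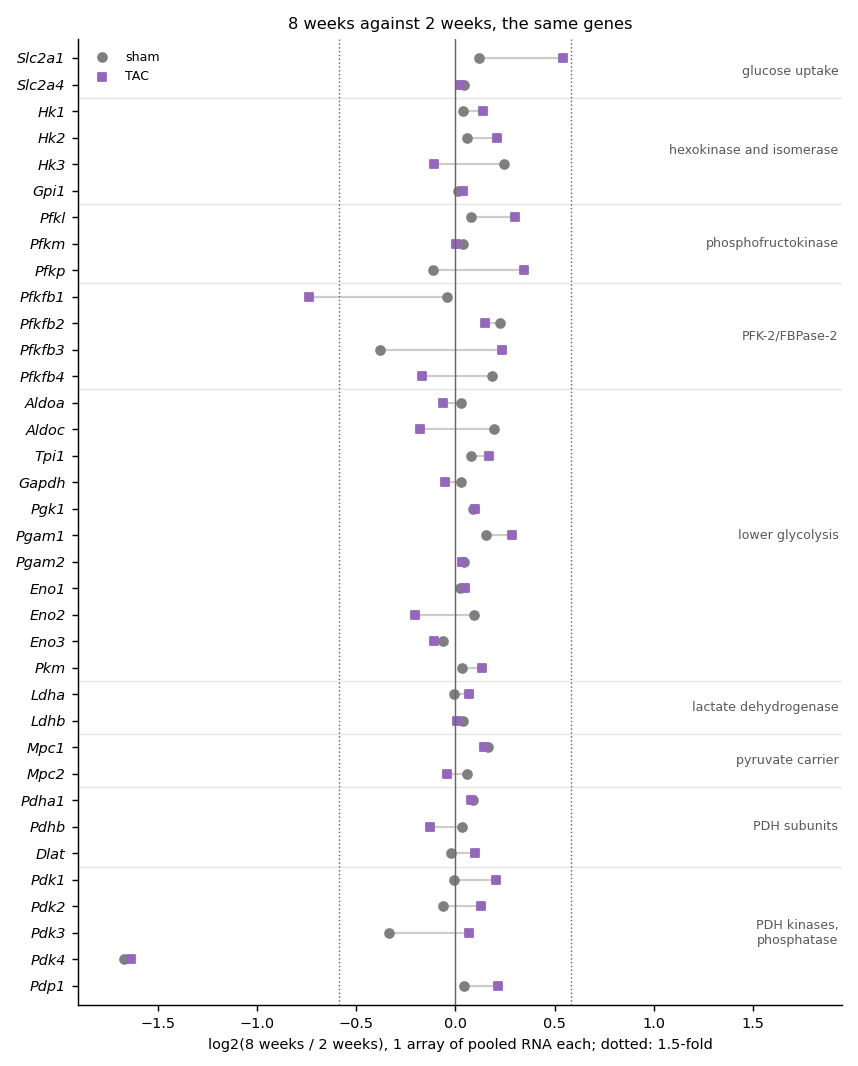
Log2 ratio of 8 weeks over 2 weeks (horizontal axis) for the 36 members, within sham (circles) and within TAC (squares); each point is the ratio of 2 arrays of pooled RNA and dotted lines mark 1.5-fold. Pdk4 is far to the left in both, Pfkfb1 in TAC alone, and the rest stay inside the lines.

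Seen over both times, 27 of the 36 members had a TAC over sham ratio on the same side of 1, 10 above and 17 below, and 69.7% of all genes measured on 4 arrays did so. The others changed side, 6 from below at 2 weeks to above at 8 weeks and 3 the other way. These counts move with the scaling, since 16 of the 36 ratios were above 1 at 8 weeks and 26 were without normalization between arrays. For 25 members the log2 changes at 2 and 8 weeks differed by under 0.2. These pairs of arrays share no sample, but all members share the arrays and their scaling.

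Other genes of glucose metabolism were taken as lists, to be read beside the shares over all genes. These were 4.16% higher and 2.62% lower at 2 weeks, and 5.32% and 4.08% at 8 weeks. Among 11 transporters and isozymes measured beside the members, none was higher and 1, Fbp2, was lower at each time. Fbp2, the muscle fructose bisphosphatase that runs opposite to phosphofructokinase, fell by 0.72 and 0.89 on the log2 scale.

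In the rest of the pyruvate dehydrogenase system, 1 of 4 genes was called at each time. Pdp2, the second phosphatase, fell from 6.24 in sham to 3.18 in TAC at 2 weeks and from 4.53 to 2.18 at 8 weeks, log2 changes of -0.97 and -1.06. Both phosphatases, Pdp1 and Pdp2, were thus below sham at both times, the first without passing 1.5-fold. Of 4 lactate transport genes, 1 was lower at 2 weeks (Slc16a7, -0.59) and 1 higher at 8 weeks (Slc16a3, 0.95). Of the glycogen genes, 1 of 17 was higher and 1 lower at 2 weeks and 2 of 16 were higher and 1 lower at 8 weeks. The higher genes were Pgm2, dim, at 0.66 at 2 weeks, and Ugp2 at 0.64 and Ppp1r3c at 0.83 at 8 weeks. Pgm2 was not well above background in sham at 8 weeks and was at least 1.79-fold higher in TAC there. Phkg1, the catalytic subunit of muscle phosphorylase kinase, was the lower gene each time, with log2 changes of -1.35 and -1.28. No gene of the pentose phosphate pathway (8), of hexosamine synthesis and O-GlcNAc (7) or of polyol and fructose metabolism (3) was called at either time. The shares over all genes were 4.16% higher and 2.62% lower at 2 weeks, and 5.32% and 4.08% at 8 weeks. Lists this short cannot tell 1 or 2 calls, or none, from such shares. Here Slc16a7, Slc16a3, Pgm2, Ugp2 and Ppp1r3c were named after their values were seen.

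**Figure D5:**
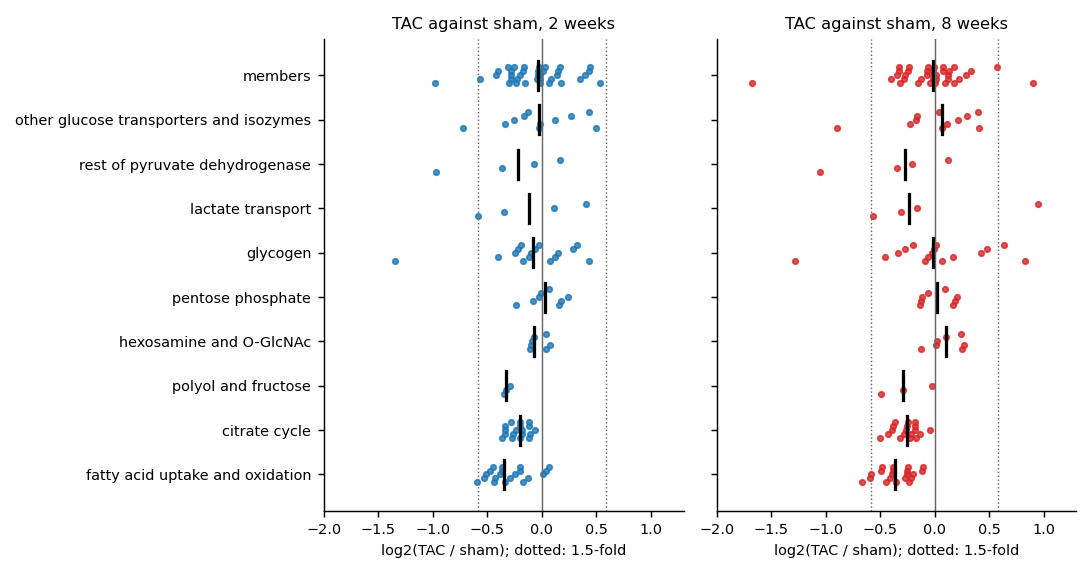
Log2 ratio of TAC over sham (horizontal axis) at 2 weeks (left) and 8 weeks (right) for genes measured on all 4 arrays, in the members and in 9 other lists; each point is a gene, black bars are list medians and dotted lines mark 1.5-fold. The members center on 0 (-0.04 and -0.01), the citrate cycle (-0.20 and -0.25) and fatty acid genes (-0.35 and -0.37) sit to the left, and Pfkfb1 is the outermost point of the members on the left.

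The members were set beside the oxidative pathways that they feed or compete with. Of the 18 citrate cycle genes none was called, but all 18 were below sham at both times, with medians of -0.20 and -0.25. Genes nearer to 0, such as Idh2 at -0.04 at 8 weeks, lay above sham without normalization between arrays, which raised every 8-week value by 0.17. Of the 20 genes of fatty acid uptake and oxidation, 1 was lower at 2 weeks and 3 at 8 weeks, where 2.62% and 4.08% of all genes were. The medians of these 20 genes were -0.35 and -0.37. Ech1, an enoyl-CoA isomerase of fatty acid oxidation, was the gene lower at both times, with -0.59 and -0.67, and Slc27a1 and Acaa2 passed at 8 weeks alone, both at -0.59. The medians of both lists stayed below 0 under all alternatives run. The members' median was closer to that of all genes than either list was, and no test of these differences was possible with 1 array per group.

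Regulators of fuel choice and targets of the hypoxia-inducible factors were counted in the same way. Over all genes, 4.16% were higher and 2.62% lower at 2 weeks, and 5.32% and 4.08% at 8 weeks. In lists this short, 1 called gene can exceed these shares. Of the regulators, 1 of 22 was lower at 2 weeks (Klf15, -0.62) and 2 of 23 were higher at 8 weeks. Irs2, an adaptor of the insulin receptor, was 1.29-fold above sham at 2 weeks and 2.35-fold at 8 weeks. Myc, a growth-related transcription factor, was dim and gave 1.04 at 8 weeks, and at 2 weeks, where sham was not well above background, it was at least 1.86-fold higher in TAC. Of 10 hypoxia-induced genes outside glycolysis, 1 was higher at 2 weeks (Car9, dim, 0.69), and none of the 9 compared at 8 weeks was called, with medians of -0.07 and 0.06. Car9 was not among those 9, being not well above background in sham at 8 weeks, and was at least 7.06-fold higher in TAC there. Klf15 and Car9, and Idh2, Slc27a1 and Acaa2 of the oxidative lists, were named after their values were seen.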

How the data were processed

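Total RNA pooled from 4 to 6 hearts per group was measured on 4 single-color Agilent SurePrint G3 Mouse arrays (probe annotation on mm9). The deposited scanner files hold the authors' processed signal, an intensity per spot after background subtraction and spatial detrending, not normalized between arrays; the headers name Feature Extraction 10.7.3.1 and the submitters' processing notes 9.1. The series' deposited value table was found to equal these intensities multiplied by 1 factor for each array (3.52 to 4.26). The methods name GeneSpring GX11 without stating a normalization.

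From these files, spots marked as outliers were left out (141 to 167 per array), log2 of the processed signal was averaged over the spots of a probe, and the 75th percentile of the array's 55681 non-control probes was subtracted. Probes were named through their transcript: 29501 of 32342 probes with a RefSeq or Ensembl name matched a gene. The brightest probe stood for a gene. A gene was compared when well above background on both arrays, and called past 1.5-fold. Where only the brighter array measured a gene, the ratio is a bound, set against the dim array's signal for the probe or its lowest signal flagged as above background, whichever is higher.

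With 1 array per group no test was made. Counts and medians of members are given beside those over all genes. The members and lists were chosen with earlier results of these data known. Genes outside the members are named when past 1.5-fold in the same direction at both times or past 2-fold at 1 time, and hypertrophy genes for the label check; the other called genes, Idh2 and the cell type markers were named after their values were seen. The 4 list genes Slc2a12, Cd68, Ly6g and Hbb-b1 had no matched probe, and some genes of the pathway are not reported here. Promoters (GRCm38.p6) come from RefSeq's table, which held 35 of the 37 members, 34 of them at the start of the probe's transcript.

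Alternatives were quantile normalization, the median or no scaling, other 75th percentiles, normexp with an offset of 50 (limma 3.58.1, R 4.3.3), the deposited table, other probes, outlier spots kept, other filters on dim probes and a 2-fold threshold. A single value counted as moved when the shift exceeded 0.162, the SD of log2 ratios between repeat spots, over 432 probes. The precision is limited by the number of arrays. The counting was tested on simulated data. Computations used Python 3.11.15 with numpy 2.4.6 and pandas 2.3.3.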

Additional observations from a re-analysis of the deposited data

How the results depend on the processing

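No paired analysis was possible because each group is a single array and the labels carry no replicate numbers, and no array could be left out for the same reason. Pfkfb1 stayed past 1.5-fold at both times under each of its 12 alternatives, and its fall at 8 weeks was the single lower call at that time under all of them. The 2-week count of lower members was 2 with scaling to the median (Pdp1 passed) and 0 at 2-fold. With the second brightest probe it was 2 (Pfkfb3 passed, on a probe near the detection limit). The 2-week count of higher members was 1 with each of 3 looser filters on dim probes, which let in Pklr, measured on the TAC array alone. At 8 weeks the count of higher members was 2 with quantile normalization, with scaling to the median and without normalization, where Pdk3 joined Pfkp, and 0 with the second brightest probe and at 2-fold. The median of the members at 2 weeks lay between -0.08 and 0.00. At 8 weeks it was 0.15 without normalization, where the median of all genes was 0.16 instead of -0.01, so each 8-week change is then higher by 0.17, and it lay between -0.04 and 0.07 otherwise. The second probe of Pfkfb4, well above background on 1 array, gave no usable ratio. The dim members Hk3 at 2 weeks and Pdk3 at 8 weeks went from 0.53 to 0.12 and from 0.57 to 0.24 with normexp. Over all genes, normexp lowered the shares called higher and lower from 4.16% and 2.62% to 1.28% and 0.92% at 2 weeks and from 5.32% and 4.08% to 3.05% and 1.31% at 8 weeks, and dropping the filter on dim probes raised them to 8.52% and 5.20% and to 7.49% and 8.98%. The offset of 50 added with normexp by itself moves ratios of dim signals toward 1. What else contributed to these differences was not tested.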
